A study of Mus musculus with 12 samples.

Results

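The heat shock chaperones described here are 10 genes, Hspa1a, Hspa1b, Hspa8, Hsp90aa1, Hsp90ab1, Dnaja1, Dnajb1, Hsph1, Hspd1 and Hspe1, which were taken by symbol from a table of 36222 genes in mouse regulatory T cells (Treg). Each symbol matched 1 gene identifier. The study asked what the transcription factor Ikaros, product of Ikzf1, does in Treg at rest and after activation. Treg were sorted as YFP+ cells from splenic CD4+ T cells of individual, age-matched young adult mice on the B6 background. All mice carried the Foxp3-YFP-Cre driver, which acts in cells that express Foxp3. The wild-type (WT) mice had intact Ikzf1, and the Ikzf1 conditional knockout (cKO) mice also carried floxed Ikzf1 alleles. Cells were taken for RNA directly (ex vivo) or after 4 h on plate-bound anti-CD3 and anti-CD28 antibody, each at 1 µg/ml (stimulated), and each of the 4 groups had 3 libraries from separate mice. No group was cultured without the antibodies, so an effect of the antibodies and an effect of the time in culture cannot be told apart, and both are called stimulation here.

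Heat shock proteins are chaperones that bind unfolded or unstable proteins and help them to fold. In the cytosol, Hsp70 proteins work with J-domain partners, which deliver clients and trigger ATP hydrolysis, and with nucleotide exchange factors of the Hsp110 family, which release the client. Clients such as kinases and steroid receptors pass on to Hsp90, and in mitochondria Hsp60 and its lid Hsp10 form a folding cage. Heat shock factor 1 (Hsf1) drives the inducible members through heat shock elements in their promoters, while constitutive relatives are made in unstressed cells. In T cells, both the stress of cell isolation and activation are known to touch this system.

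All 10 chaperone mRNAs were lower after stimulation than ex vivo, in WT and in cKO Treg alike. The fall ran from 21.3- to 35.1-fold for the inducible Hsp70 pair Hspa1a and Hspa1b to 1.51- to 1.59-fold for the mitochondrial pair Hspd1 and Hspe1. None of the 10 was called different between WT and cKO Treg, either ex vivo or after stimulation.

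The promoter letters of the genes at both ends of this range are shown first. A promoter window of RefSeq (build GRCm38.p6, 250 bases before and 50 after the start) was given for 7 of the 10 genes. Hspa8, Hsp90aa1 and Hsp90ab1 had no entry. The windows were searched for 2 neighbouring units of the heat shock element, spelled GAANNTTC or TTCNNGAA, each of which reads the same on both strands. The 3-unit forms, in which NN and 1 further unit in the opposite direction follow a 2-unit form, were searched as well; they are each other's reverse complement and contain both 2-unit forms. Hspa1a and Hspa1b are shown because they fell most and their upstream letters are nearly the same. Hspe1, whose upstream stretch is shared with the divergent gene Hspd1, is shown because this pair fell least. Hsph1 is shown as an inducible gene with a longer match. Capitals mark the matches, and positions are counted from the transcription start, the base before it being -1. Positions on build mm9 (NCBIM37) come from exact matches, each found once on its chromosome.
Hspa1a, -250 to -1, chr17:35109102-35109351, minus strand: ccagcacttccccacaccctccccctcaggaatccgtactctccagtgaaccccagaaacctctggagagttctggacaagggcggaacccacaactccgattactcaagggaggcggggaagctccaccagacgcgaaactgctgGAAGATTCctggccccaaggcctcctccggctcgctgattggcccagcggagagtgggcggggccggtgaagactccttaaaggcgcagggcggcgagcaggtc
Hspa1b, -250 to -1, chr17:35096184-35096433, minus strand: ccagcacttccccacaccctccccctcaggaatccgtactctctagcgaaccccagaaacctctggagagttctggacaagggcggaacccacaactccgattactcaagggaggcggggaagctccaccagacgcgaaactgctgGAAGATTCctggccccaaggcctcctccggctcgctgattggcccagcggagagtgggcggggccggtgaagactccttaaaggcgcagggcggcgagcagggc
Hspe1, -95 to -66, chr1:55144897-55144926, plus strand: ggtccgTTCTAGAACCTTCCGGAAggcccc
Hsph1, 1 to 30, chr5:150438861-150438890, minus strand: gtaaaatgctgcagaTTCTGGAAAGTTCtc

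The upstream stretches of Hspa1a and Hspa1b differed at 3 of 250 bases and held a single 2-unit match, at -104 in both. The stretch between Hspe1 and Hspd1 held overlapping matches at -89, -84 and -79 from the Hspe1 start and at -144, -139 and -134 from 1 of the 2 listed Hspd1 starts. Hsph1 held a 3-unit match just inside the transcribed region, at 16 from the start shown, and a 2-unit match at -54. Dnaja1 had a 2-unit match at -124 from 1 of its 3 listed starts, and neither window of Dnajb1 held these letters. Counted by window, 7 of the 12 windows of these genes held a 2-unit match and 4 a 3-unit match, while 15.1% and 0.603% of all 32851 promoter windows did. The windows of 1 gene overlap, and the matches of Hspd1 and Hspe1 are the same stretch. A match is a description of letters, and windows without a match say nothing about the binding of Hsf1.

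Values are given as scaled TPM, that is the deposited TPM (transcript abundance relative to the library total) divided by a factor per library from the trimmed mean of M-values. The fit held 13318 genes with 5 TPM or more in the mean of some group, all 10 chaperones among them. Changes are differences in log2(scaled TPM + 1) from a limma fit to all 12 libraries, and calls required an adjusted p under 0.05. P-values measure the spread between these 12 libraries only, and in bulk RNA fewer cells with a transcript and less of it per cell cannot be told apart.

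The inducible Hsp70 genes had the widest range. Hspa1a (ENSMUSG00000091971, mm9 chr17:35106144-35109069) stood at 19.1, 78.6 and 79.3 scaled TPM in the WT ex vivo libraries and at 62.7, 85.2 and 151 in the cKO ex vivo libraries. After stimulation it stood at 3.92, 2.09 and 2.32 in WT and at 3.94, 5.49 and 3.72 in cKO. Every stimulated library thus lay under every ex vivo library, including WT ex vivo 1, the lowest of them. The mean was 21.3-fold higher ex vivo in WT and 22.7-fold higher in cKO, with log2 changes upon stimulation of -3.77 (SE 0.49, adjusted p 0.000202) and -4.14 (SE 0.49, adjusted p 9.09e-05). Without WT ex vivo 1 the change in WT was -4.43 (adjusted p 2.51e-05).

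Hspa1b (ENSMUSG00000090877, mm9 chr17:35093381-35096183), the neighbour of Hspa1a in the MHC region and coding for nearly the same protein, followed it closely. Its ex vivo levels were 28.1, 104 and 103 scaled TPM in WT and 68.5, 103.6 and 194 in cKO. Its stimulated levels were 2.85, 3.6 and 3.74 in WT and 2.48, 4.34 and 3.61 in cKO. The groups did not overlap, and WT ex vivo 1 and cKO ex vivo 3 were again the ends of the ex vivo range. The log2 change was -3.96 (SE 0.48, adjusted p 0.000120) in WT and -4.67 (SE 0.48, adjusted p 3.46e-05) in cKO, and with WT ex vivo 1 left out the change in WT was -4.57 (adjusted p 3.07e-05). Among the 13318 genes, only 1 other gene fell further than Hspa1b in WT and none did in cKO, where Hspa1a ranked 2.

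The stimulated levels of this pair rested on 50 to 119 reads per library and lay near those of genes that T cells are not known to use. Among 1716 olfactory and vomeronasal receptor genes the 90th percentile was 1.585 to 3.03 scaled TPM in the stimulated libraries. Single reads of Hspa1a and Hspa1b are hard to separate, since 59.2% of the 51-base windows of the Hspa1a exon also occur in Hspa1b, and only 39.3% and 38.0% of the windows of Hspa1a and Hspa1b occur once in the genome. The reads were paired, and these windows leave out the mate of each read. The study counted with htseq-count in union mode and names no setting for reads that align in more than 1 place, which that counter leaves out by default, so the level of each gene is uncertain. Summed as 1 gene, the pair changed by -4.03 in WT (adjusted p 0.000106) and by -4.56 in cKO (adjusted p 4.17e-05).

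The J-domain partners, which feed clients to Hsp70, fell 4.25- to 5.44-fold. Dnajb1 (Hsp40, ENSMUSG00000005483, mm9 chr8:86132074-86135801) had, ex vivo, 113, 163 and 197 scaled TPM in WT and 134, 135 and 208.5 in cKO, and, after stimulation, 31.3, 34.1 and 31.7 in WT and 28.2, 31.6 and 27.99 in cKO. The ex vivo and stimulated ranges lay far apart, with the lowest ex vivo library, WT ex vivo 1, still above all 6 stimulated libraries. Dnajb1 changed by -2.21 in WT (SE 0.20, adjusted p 2.39e-05) and by -2.37 in cKO (SE 0.20, adjusted p 1.05e-05). Dnaja1 (ENSMUSG00000028410, mm9 chr4:40669183-40684182), a J-domain protein of the other main type, had, ex vivo, 63.3, 70.9 and 83.6 scaled TPM in WT and 54.9, 53.5 and 74.0 in cKO, and, after stimulation, 13.9, 17.4 and 14.4 in WT and 13.5, 15.2 and 14.2 in cKO. Its ex vivo libraries spread less than those of Hspa1a, and no stimulated library came near them. It changed by -2.18 in WT (SE 0.14, adjusted p 2.90e-06) and by -2.0 in cKO (SE 0.14, adjusted p 3.61e-06), the smallest adjusted p-values of the 10 genes.

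Hsph1 (Hsp110, ENSMUSG00000029657, mm9 chr5:150416862-150438951), the nucleotide exchange factor of Hsp70, stood ex vivo at 31.6, 52.5 and 49.5 scaled TPM in WT and at 42.2, 49.45 and 77.2 in cKO. After stimulation it was at 13.8, 14.35 and 14.4 in WT and at 12.6, 12.6 and 12.1 in cKO. The stimulated libraries were tightly grouped, with an SD of 0.347 in WT and 0.302 in cKO, against 11.3 and 18.5 ex vivo. The log2 change was -1.55 in WT (SE 0.22, adjusted p 0.000316) and -2.05 in cKO (SE 0.22, adjusted p 4.40e-05).

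The Hsp90 genes split by size of change. The inducible Hsp90aa1 (ENSMUSG00000021270, mm9 chr12:111928815-111940938) stood ex vivo at 56.96, 66.55 and 73.9 scaled TPM in WT and 57.3, 51.8 and 70.8 in cKO, and after stimulation at 26.4, 25.8 and 26.1 in WT and 21.9, 24.7 and 21.1 in cKO. Every stimulated library lay under every ex vivo library. It fell 2.52-fold in WT and 2.65-fold in cKO (log2 -1.29 and -1.36, SE 0.12 for both, adjusted p 2.91e-05 and 1.53e-05). The constitutive Hsp90ab1 (ENSMUSG00000023944, mm9 chr17:45704724-45710220) was the most abundant of the 10 transcripts per length in every library, at 602, 603 and 745 scaled TPM in WT and 705, 616 and 811 in cKO ex vivo, and at 391, 382.5 and 424 in WT and 367.5, 401 and 324 in cKO once stimulated. In scaled TPM the stimulated and ex vivo ranges did not overlap in either genotype. In the deposited TPM they overlapped in WT, at 487.6 to 699.4 ex vivo and 357.2 to 512.4 after stimulation. Hsp90ab1 fell 1.63-fold in WT (log2 -0.70, SE 0.14, adjusted p 0.00266) and 1.95-fold in cKO (log2 -0.96, SE 0.14, adjusted p 0.000294). The ratio of Hsp90ab1 to Hsp90aa1 was 9.07 to 10.6 in WT and 11.5 to 12.3 in cKO ex vivo, and 14.8 to 16.3 in WT and 15.3 to 16.8 in cKO after stimulation. The WT call of Hsp90ab1 depended on the processing, with adjusted p-values of 0.0725 when genes down to 1 TPM were kept, 0.0982 with no filter, 0.177 with the TPM as deposited and 0.108 with the TPM rescaled without Gm10800, a gene model that takes a large share of these libraries.

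Hspa8 (Hsc70, ENSMUSG00000015656, mm9 chr9:40609067-40613283), the constitutive Hsp70, stood ex vivo at 153, 166 and 208 scaled TPM in WT and 164, 153 and 210.3 in cKO, and after stimulation at 85.45, 82.6 and 91.5 in WT and 87.2, 105 and 82.9 in cKO. The ranges did not overlap. It fell 2.03-fold in WT (log2 -1.0, SE 0.15, adjusted p 0.000493) and 1.91-fold in cKO (log2 -0.92, SE 0.15, adjusted p 0.000681). Since Hspa1a fell much further, the ratio of Hspa8 to Hspa1a was 1.39 to 7.99 over the 6 ex vivo libraries and 19.2 to 39.5 over the 6 stimulated libraries. Against Hspa1a and Hspa1b summed, the ratio was 0.911 to 3.23 in WT and 0.609 to 1.25 in cKO ex vivo, and 12.6 to 15.1 in WT and 10.7 to 13.6 in cKO after stimulation.

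**Figure D1:**
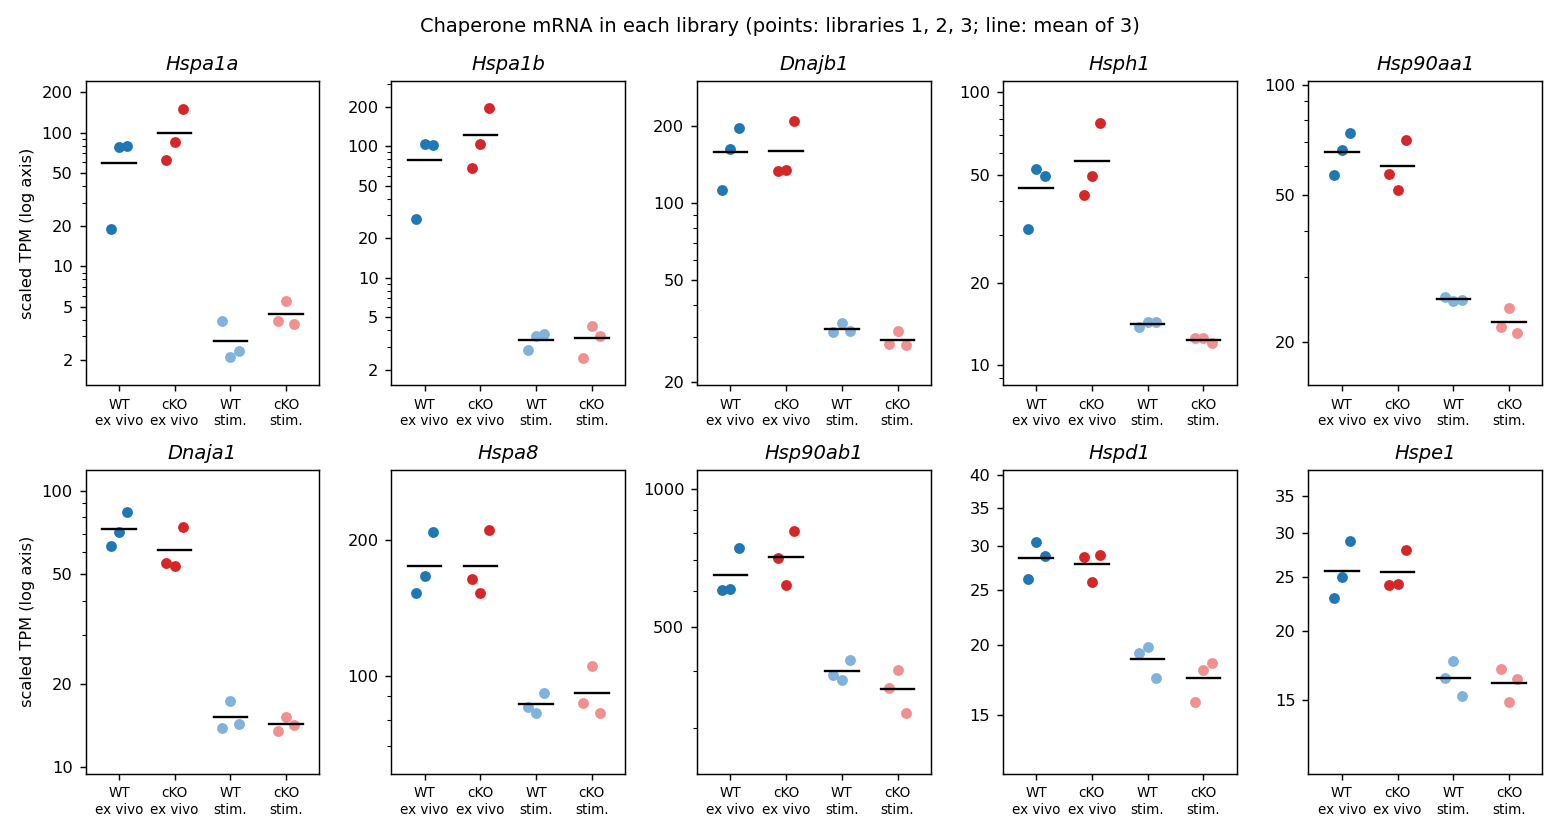
Scaled TPM (log axis) of each of the 10 chaperones in the 12 libraries, grouped by condition and genotype, with libraries 1, 2 and 3 as points from left to right and means of 3 as lines. In every panel the 6 stimulated libraries lie under the 6 ex vivo libraries, and WT and cKO points overlap ex vivo.

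The mitochondrial pair moved least. Hspd1 (Hsp60, ENSMUSG00000025980, mm9 chr1:55134679-55145087) ranged ex vivo from 26.2 to 30.5 scaled TPM in WT and 25.9 to 28.9 in cKO, and after stimulation from 17.5 to 19.8 in WT and 15.9 to 18.6 in cKO. Hspe1 (Hsp10, ENSMUSG00000073676, mm9 chr1:55144976-55148151), whose annotated start overlaps that of Hspd1 on the other strand, ranged ex vivo from 22.9 to 29.0 in WT and 24.2 to 27.9 in cKO, and after stimulation from 15.2 to 17.6 in WT and 14.8 to 17.1 in cKO. The groups did not overlap for either gene, and the ratio of Hspd1 to Hspe1 stayed between 0.931 and 1.22 in all 12 libraries. Hspd1 fell 1.51-fold in WT (log2 -0.57, SE 0.09, adjusted p 0.000749) and 1.59-fold in cKO (log2 -0.64, SE 0.09, adjusted p 0.000282). Hspe1 fell 1.56-fold in WT (log2 -0.61, SE 0.10, adjusted p 0.00114) and 1.58-fold in cKO (log2 -0.63, SE 0.10, adjusted p 0.000727). In WT both calls were lost with the TPM as deposited (log2 -0.38 and -0.42, adjusted p 0.114 and 0.137) and with the TPM rescaled without Gm10800 (log2 -0.14 and -0.18, adjusted p 0.233 and 0.152).

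Counted together, 10 of 10 chaperones were called lower after stimulation in WT, where 19.3% of all genes tested were called lower, and 10 of 10 in cKO, where 26.5% were. In both genotypes all 10 had ranges of scaled TPM that did not overlap, with the stimulated group lower, against 26.3% of all genes in WT and 30.7% in cKO. In the deposited TPM the ranges of Hsp90ab1 overlapped in WT. The median log2 change of the 10 was -1.42 in WT and -1.68 in cKO, beside medians of 0.00 and -0.01 over all genes. The calls of all 10 in both genotypes were kept in each of the 12 fits that left out 1 library. Without WT ex vivo 3, the library from a female mouse, the count was 10 in both genotypes as well. With the TPM as deposited or rescaled without Gm10800 the count in WT was 7 and in cKO 10. The interaction test of the drop between genotypes called no chaperone (147 of 13318 genes were called, 1.10%). None had an unadjusted p under 0.05 in limma, and the log2 difference between the stimulation effects ran from -0.71 for Hspa1b (95% confidence interval -2.20 to 0.77) to 0.18 for Dnaja1 (-0.26 to 0.62). Without WT ex vivo 1 the difference of Hspa1b was -0.10 and that of Hspa1a 0.29.

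**Figure D2:**
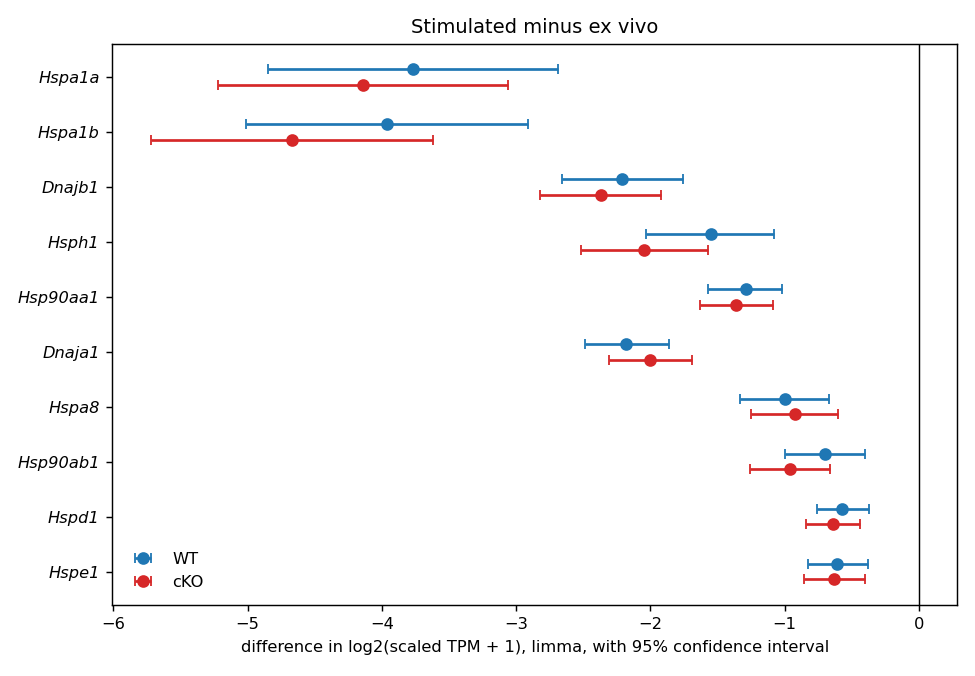
Change upon stimulation (stimulated minus ex vivo, in log2(scaled TPM + 1)) of each chaperone in WT and in cKO Treg, with 95% confidence intervals from limma. All intervals lie below 0, those of Hspa1a and Hspa1b being the lowest and widest, and WT and cKO intervals overlap for every gene.

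The makeup of the chaperone pool changed along with its summed scaled TPM, which is a relative level and not an amount per cell. Summed over the 10 genes, the ex vivo level was 1358 ± 241 scaled TPM in WT and 1497 ± 309 in cKO, and the stimulated level 615 ± 22.2 in WT and 576 ± 54.5 in cKO (SD, n = 3). The 6 stress-inducible cytosolic genes (Hspa1a, Hspa1b, Dnajb1, Hsph1, Hsp90aa1 and Dnaja1) made up 27.9% to 41.9% of that sum over the ex vivo libraries and 14.5% to 16.2% over the stimulated libraries. The constitutive pair Hspa8 and Hsp90ab1 took 55.1% to 67.7% ex vivo and 77.5% to 80.4% after stimulation. The mitochondrial pair took 3.07% to 4.41% ex vivo and 5.11% to 6.65% after stimulation. Hsp90ab1 was the largest single part of the pool in every library.

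**Figure D3:**
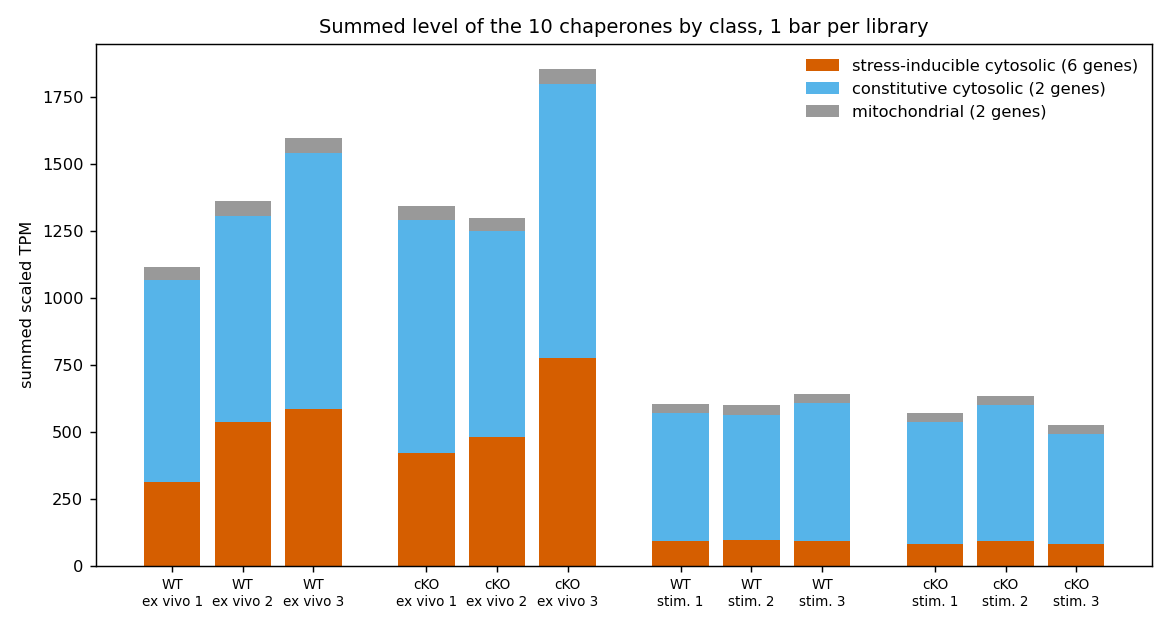
Summed scaled TPM of the 10 chaperones in each library, stacked by class (6 stress-inducible cytosolic, 2 constitutive cytosolic, 2 mitochondrial genes). The 6 ex vivo bars reach 1116 to 1854 and the 6 stimulated bars 525 to 640.4, and the stress-inducible part shrinks most.

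The order of levels per length changed in the same way. Ex vivo it ran from Hsp90ab1 over Hspa8 and Dnajb1 to a middle group of Hspa1b, Hspa1a, Dnaja1, Hsp90aa1 and Hsph1 whose neighbours overlapped in range in both genotypes, and ended with Hspd1 and Hspe1, which overlapped each other. Hspa8 and Dnajb1 also overlapped ex vivo in both genotypes. After stimulation Hsp90ab1, Hspa8, Dnajb1 and Hsp90aa1 held places 1 to 4 in both genotypes without overlap between neighbours. Hspd1, Hspe1 and Dnaja1 followed with overlapping neighbours, then Hsph1, and Hspa1a and Hspa1b came last with overlapping ranges. The inducible Hsp70 pair thus went from places 4 and 7 of 10 in WT ex vivo to places 9 and 10.

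Loss of Ikaros was compared with WT ex vivo and after stimulation. Ikzf1 itself, which checks the labels, was lower in cKO by -1.52 (log2, adjusted p 5.44e-05) ex vivo and by -1.29 (adjusted p 0.000161) after stimulation, and its deposited TPM did not overlap between genotypes in either condition. None of the 10 chaperones was called ex vivo, where 704 of 13318 genes were (5.29%), and none after stimulation, where 923 were (6.93%). None had an unadjusted p under 0.05 in limma in either comparison, against 2383 and 3166 of all genes. Ranges of WT and cKO overlapped for all 10 ex vivo (21.5% of all genes did not overlap). After stimulation they did not overlap for Hsph1 and Hsp90aa1, both lower in cKO, while 30.8% of all genes did not overlap.

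In log2 size, the largest estimates of a genotype difference were those of the inducible Hsp70 pair ex vivo, though not the smallest adjusted p, which was that of Hsp90aa1 after stimulation. Hspa1a had a mean of 99.7 ± 46.0 scaled TPM in cKO and 59.0 ± 34.6 in WT (SD, n = 3), a log2 difference of 0.90 (95% confidence interval -0.18 to 1.98, adjusted p 0.388). Hspa1b had 122 ± 64.8 and 78.1 ± 43.3, a difference of 0.72 (-0.32 to 1.77, adjusted p 0.501). Both rested on single libraries. Without WT ex vivo 1 the differences were 0.24 and 0.11, and without cKO ex vivo 3 they were 0.55 and 0.32. Hsph1 differed by 0.32 (-0.16 to 0.79, adjusted p 0.516), by 0.09 without WT ex vivo 1 and by 0.07 without cKO ex vivo 3. For the other 7 genes ex vivo the estimates lay between -0.26 for Dnaja1 (-0.57 to 0.05) and 0.13 for Hsp90ab1 (-0.17 to 0.42). The intervals were narrowest for Hspd1 (-0.23 to 0.16) and Hspe1 (-0.23 to 0.22), and the intervals of all genes but Hspa1a and Hspa1b lay within 1 log2 unit of 0.

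After stimulation the estimates ran from -0.20 for Hsp90aa1 (-0.48 to 0.07, adjusted p 0.342) to 0.53 for Hspa1a (-0.55 to 1.61, adjusted p 0.540). Hsp90aa1 averaged 22.6 ± 1.87 scaled TPM in cKO and 26.1 ± 0.298 in WT, and Hsph1 averaged 12.4 ± 0.302 and 14.2 ± 0.347 (SD, n = 3). These are small shifts, of -0.20 and -0.18 on the log2 scale, beside a median over all genes of -0.03.

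**Figure D4:**
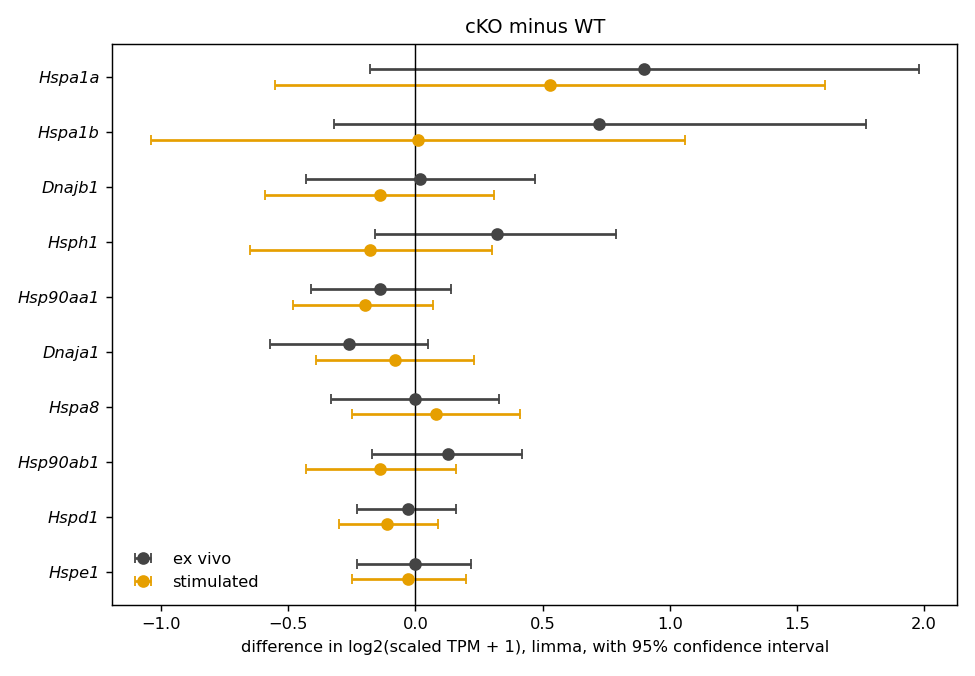
Difference between genotypes (cKO minus WT, in log2(scaled TPM + 1)) of each chaperone ex vivo and after stimulation, with 95% confidence intervals from limma. All 20 intervals include 0, and those of Hspa1a and Hspa1b are widest.

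Libraries of a group differed among themselves. WT ex vivo 1 was the lowest of the 6 ex vivo libraries for 7 of the 10 chaperones and cKO ex vivo 3 the highest for 6. Hspa1a varied by 58.6% (coefficient of variation) in WT ex vivo and 46.2% in cKO ex vivo, Dnajb1 by 27.0% and 26.9%, and Hspd1 by 7.48% and 6.01%. In stimulated cells Hspa1a varied by 35.8% in WT and 22.0% in cKO, Dnajb1 by 4.72% and 6.94%, and Hspd1 by 6.55% and 8.21%, so that the spread of Hspd1 in cKO was wider after stimulation than ex vivo. Within groups the other genes followed the mean profile of Hspa1a, Hspa1b, Dnajb1 and Hsph1, with correlations of the deviations from group means over 12 libraries of 0.85 for Hsp90aa1, 0.77 for Dnaja1, 0.75 for Hspa8, 0.65 for Hspe1, 0.56 for Hsp90ab1 and 0.49 for Hspd1. These correlations describe libraries that share their depth and scaling, and have no test.

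The rest of the chaperone network was described by lists of genes with a shared role. Their median changes ran from -0.31 to 0.30 in WT and from -0.49 to 0.11 in cKO, beside -1.42 and -1.68 for the 10 chaperones. With the TPM rescaled without Gm10800 the list medians ran from 0.10 to 0.68 in WT and from -0.24 to 0.36 in cKO. As background, 12.7% of all genes were called higher after stimulation in WT and 17.3% in cKO. With the TPM rescaled without Gm10800, which moved the median of all genes by 0.40 in WT and 0.24 in cKO, 41.0% of all genes were called higher and 6.50% lower in WT, and 29.5% higher and 13.2% lower in cKO. List counts under that rescaling are to be read against these shares. Of 12 J-domain co-chaperones, 1 was called higher and 2 lower in WT, and 2 higher and 4 lower in cKO, while with the TPM rescaled without Gm10800 the split was 6 higher and 2 lower in WT and 3 higher and 2 lower in cKO. Dnajb14, a J-domain protein of the endoplasmic reticulum membrane, was called higher in both genotypes (0.52 and 0.75, adjusted p 0.0109 and 0.00110), but in neither when genes down to 1 TPM were kept (adjusted p 0.242 and 0.177), and in WT not without WT stimulated 3 (0.0513). Dnajb4, Dnajb6, Bag3, Dnajb9 and Hspa5 were called lower in both genotypes under every alternative scaling, filter and left-out library. Dnajb4, a further J-domain protein, went from 33.3 scaled TPM in WT ex vivo and 25.4 in cKO ex vivo to 10.2 and 7.003, changes of -1.60 and -1.70 (adjusted p 4.10e-05 and 2.14e-05). Dnajb6 changed by -0.79 and -0.77 (adjusted p 0.000249 and 0.000250).

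Bag3, a co-chaperone that links Hsp70 to autophagy, fell from 28.4 to 14.3 scaled TPM in WT and from 47.1 to 16.6 in cKO, changes of -0.94 and -1.45 (adjusted p 0.00118 and 5.77e-05). It was also the one chaperone-related gene called higher in cKO ex vivo, at 38.4, 47.6 and 55.4 scaled TPM against 25.9, 32.8 and 26.4 in WT, a difference of 0.71 (SE 0.16, adjusted p 0.0285). The ranges did not overlap, but the adjusted p was 0.113 without cKO ex vivo 3, 0.0829 without cKO ex vivo 2, 0.0878 without WT ex vivo 1, 0.0999 without WT ex vivo 3 and 0.432 when genes down to 1 TPM were kept. Dnajb5, a J-domain protein, was called lower in cKO ex vivo (-0.52, adjusted p 0.0406) and higher after stimulation in cKO (0.55, adjusted p 0.00599). The genotype call was kept in 3 of the 12 fits that left out a library.

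The list with small heat shock proteins and polyubiquitin held 4 tested genes, of which 2 were called lower in WT, and 2 lower and 1 higher in cKO. With the TPM rescaled without Gm10800 the split was 2 higher and 2 lower in WT and 1 higher and 2 lower in cKO. Ubb, which codes for ubiquitin, the tag of misfolded proteins for degradation, changed by -0.91 in WT and -1.11 in cKO (adjusted p 0.000882 and 0.000201). Ubb lost its WT call with the TPM as deposited (adjusted p 0.0671). In the endoplasmic reticulum, Dnajb9, a J-domain partner of the Hsp70 protein BiP, fell from 163 to 20.8 scaled TPM in WT and from 114 to 16.6 in cKO, changes of -2.90 and -2.71 (adjusted p 1.77e-06 and 2.08e-06). Hspa5, which codes for BiP, changed by -1.33 and -1.55 (adjusted p 2.75e-05 and 7.75e-06). Of 14 chaperones of the endoplasmic reticulum 5 were called lower in WT and 7 in cKO, and none higher, but with the TPM rescaled without Gm10800 the split was 5 higher and 2 lower in WT and 1 higher and 3 lower in cKO.

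For the other lists the split also moved with the scaling. Of 8 subunits of the cytosolic chaperonin TRiC, 4 were called lower in WT and 6 in cKO, with median changes of -0.31 and -0.46, and with the TPM rescaled without Gm10800 none was lower and 2 were higher in WT, and 2 were lower in cKO. Of 12 co-chaperones of Hsp90 and Hsp70, 2 were lower and 1 higher in WT and 5 were lower in cKO, and under that rescaling 6 were higher in WT, and 4 higher and 2 lower in cKO. Of 8 other mitochondrial chaperones and proteases, 3 were lower and 1 higher in WT, and 4 lower in cKO, against 4 higher in WT, and 2 higher and 1 lower in cKO, under that rescaling. Hspa4l, an Hsp110 relative, was higher after stimulation in WT (1.01, adjusted p 5.98e-05) and in cKO (0.34, adjusted p 0.0258), though in cKO it turned to -0.15 when genes down to 1 TPM were kept and lost its call without cKO ex vivo 1 (0.0735), cKO ex vivo 3 (0.0640) or cKO stimulated 2 (0.0858). It was called lower in cKO than in WT after stimulation (-0.46, adjusted p 0.0289), and this call was lost without WT stimulated 2 (0.127), WT stimulated 3 (0.0882), cKO stimulated 1 (0.109) or cKO stimulated 3 (0.0586). Hspa14, a cytosolic Hsp70, was lower (-0.36 and -0.39, adjusted p 0.0121 and 0.00605) but stood at 0.04 in WT with the TPM rescaled without Gm10800.

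Among 4 genes of heat shock factors and their binding protein, 2 were called higher after stimulation in WT, Hsf2 (0.60, adjusted p 0.00134) and Hsbp1 (0.32, adjusted p 0.0472), and Hsf4 in cKO (0.58, adjusted p 0.0173). When genes down to 1 TPM were kept none of the 4 was called, with 0.36 for Hsf2 (adjusted p 0.325), 0.07 for Hsbp1 (0.917) and 0.12 for Hsf4 (0.657). Hsf4 also lost its call without cKO ex vivo 3 (0.0617). Hsbp1, which codes for the binding protein, was called lower in cKO than in WT after stimulation (-0.44, adjusted p 0.0419). Both calls of Hsbp1 were kept in only 3 of the 12 fits that left out a library, with adjusted p up to 0.160 and 0.176, and neither with the replicate number as a block (0.0692 and 0.0733). Hsf1, named for its role after its values were seen, ranged ex vivo from 28.45 to 43.0 scaled TPM in WT and 32.5 to 39.5 in cKO, and after stimulation from 31.0 to 36.25 in WT and 26.05 to 34.4 in cKO. The mRNA of the main heat shock factor was thus present at overlapping levels in all 4 groups, and was not called after stimulation in either genotype.

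**Figure D5:**
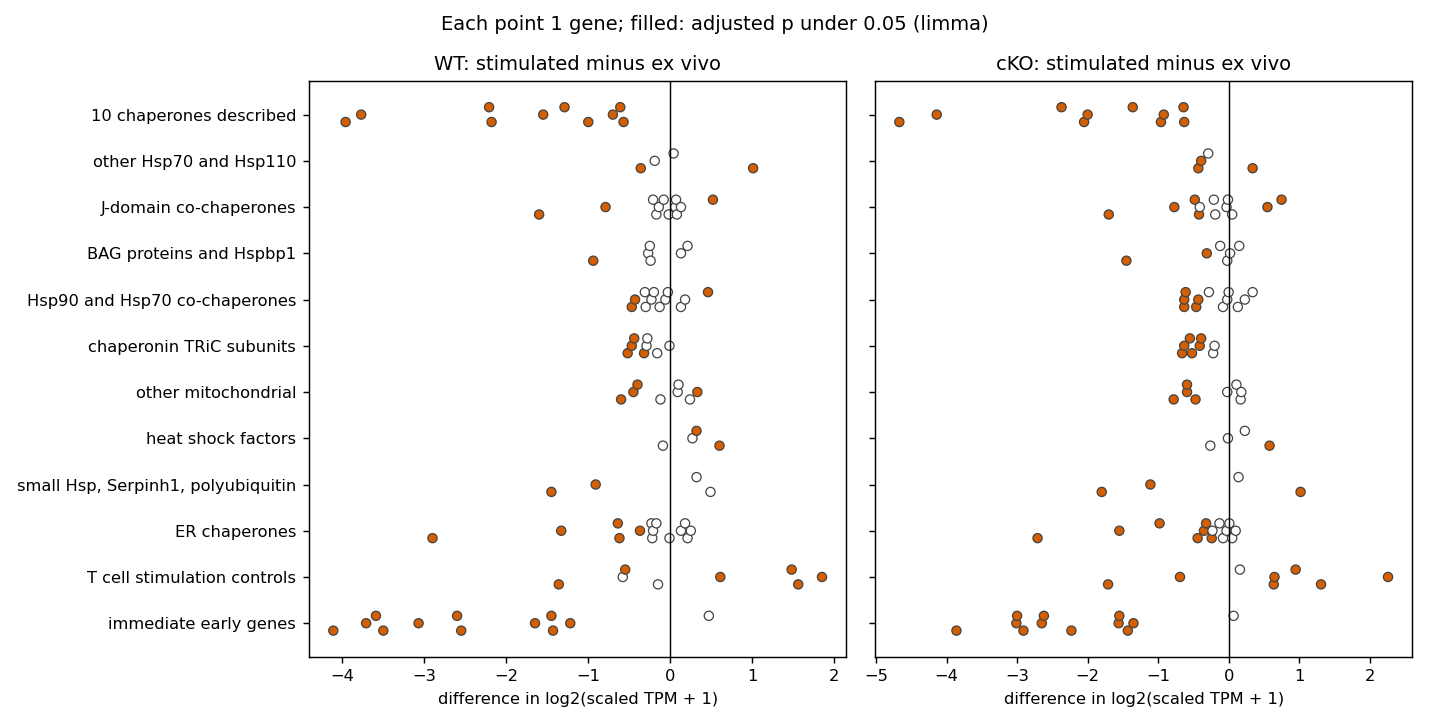
Change upon stimulation (in log2(scaled TPM + 1)) of the 10 chaperones and of each tested gene of 11 other lists, in WT and in cKO, with 1 point a gene, filled where its adjusted p was under 0.05 in limma. All 10 chaperones and 11 of 12 immediate early genes lie to the left and are filled, while the other chaperone lists lie mostly near 0.

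Genes known to rise when cells are handled moved in the same direction as the chaperones. Of 12 such immediate early genes, 11 were called lower after stimulation in both genotypes, with median changes of -2.58 in WT and -2.42 in cKO. Their summed level was ex vivo 6256 to 9065 scaled TPM in WT and 5391 to 7011 in cKO, and after stimulation 867 to 1032 in WT and 850 to 1136 in cKO. Fosb, a subunit of AP-1, changed by -3.71 in WT (adjusted p 7.27e-07) and by -3.86 in cKO (adjusted p 4.16e-07). The part of cell handling in the ex vivo chaperone levels was not tested. Of 8 genes known to respond to T cell stimulation, 4 were called higher and 2 lower in WT, and 5 higher and 2 lower in cKO. The count in cKO was 1 higher and 2 lower when genes down to 1 TPM were kept, and 2 higher and 2 lower with the TPM as deposited. Tnfrsf9 changed by 1.85 in WT and 2.26 in cKO (adjusted p 1.72e-05 and 3.64e-06) and Irf4 by 1.56 and 0.95 (adjusted p 1.52e-05 and 0.000301), while Cd69, an early activation marker, changed by -1.36 and -1.71 (adjusted p 0.000517 and 9.41e-05).

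The 5 genes most like the mean profile of Hspa1a, Hspa1b, Dnajb1 and Hsph1 over the 12 libraries, out of 13308 other genes, were Ighm (Pearson r 0.983), Zfp36 (0.983), Timp2 (0.982), Sepp1 (0.979) and Fosb (0.978). The correlation rests largely on the step between ex vivo and stimulated groups. Within groups it was 0.65, 0.64, 0.63, 0.62 and 0.56. Zfp36, which codes for an mRNA-destabilising protein, and Fosb are immediate early genes of the list above. Ighm, the gene of the IgM heavy chain, averaged 300.2 scaled TPM in WT and 363.8 in cKO ex vivo. After stimulation it averaged 96.11 in WT and 91.03 in cKO. Ighm is not among the B cell markers summed below, and its source was not tested.

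Library depth lay between 11822714 and 20247649 reads assigned to a gene ex vivo and between 8208659 and 13440658 after stimulation. The lowest was cKO stimulated 3. The median of the olfactory and vomeronasal receptor genes was 0.5053 to 0.9787 scaled TPM ex vivo and 0.7285 to 1.436 after stimulation. Depth and this background thus differed along with stimulation. The chaperones rested on 126 to 31118 reads per library, apart from Hspa1a and Hspa1b in stimulated cells. Single reads of 51 bases from Hsp90aa1, Hspd1 and Hspa8 are in part ambiguous as well, since 44.1%, 49.8% and 63% of their exonic windows occur once in the genome, against 99.3% for Dnajb1 and 100% for Hsph1. The windows lie within exons and leave out the mate of each read, so they do not give the share of ambiguous pairs. Treg markers were high in all libraries (Foxp3 82.7 to 253 TPM), their 7 genes summing to 1909 to 2212 scaled TPM ex vivo and 1233 to 1728 after stimulation, while those of other lineages were low, summing over the 12 libraries to 8.62 to 21.3 scaled TPM for 4 B cell markers, 10.9 to 23.2 for 4 myeloid markers, 8.72 to 14.5 for 2 CD8 T cell markers, 2.52 to 7.37 for 2 NK cell markers, 1.20 to 7.62 for 4 erythroid markers and 2.87 to 8.51 for 2 dendritic markers, with Hba-a1 at most at 0.361 TPM and Hba-a2 at most at 0.159 TPM. Myeloid markers summed to 17.5 to 23.2 in stimulated and 10.9 to 16.2 in ex vivo libraries. B cell markers summed to 8.62 to 13.5 in WT and 15.3 to 18.7 in cKO ex vivo, and to 9.27 to 11.3 in WT and 14 to 21.3 in cKO after stimulation, so that the genotypes did not overlap. Their 1 member among the genes tested, Cd79b, was called lower after stimulation in WT (-0.68, adjusted p 0.0406), as the chaperones were, and higher in cKO than in WT after stimulation (0.96, adjusted p 0.0282). The part of these cells in the chaperone levels was not tested. Gm10800 held 17.65% to 39.81% of the TPM ex vivo and 32.59% to 55.88% after stimulation, and WT ex vivo 3 alone had Xist (179 TPM), the mark of a female.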

How the data were processed

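RNA was sequenced by the authors from 12 Treg libraries after depletion of ribosomal RNA, with a strand-specific kit and paired 51 bp reads. Following the study methods and per the labels, reads were aligned to mm9 with STAR 2.6.0c and counted per gene on exons with HTSeq 0.6.1 (counting mode reverse strand). The deposited signal is TPM, which sums to 1000000 per library over 36222 genes, and the deposited log2 column is the log2 of TPM plus the value of 1 read. Dividing the TPM by that added value gave back whole reads for 99.9977% of values (tolerance 0.01 read), which served for depths only. A second deposited table holds the authors' own pairwise comparisons (log2 fold changes, p-values and FDR) and was not used.

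For the 13318 genes reaching 5 TPM in the mean of some group, TPM were divided by TMM (trimmed mean of M-values) factors (30% of M-values and 5% of A-values trimmed). The log2(scaled TPM + 1) was fitted with limma 3.58.1 (lmFit, contrasts, eBayes with trend) in R 4.3.3 to all 12 libraries, with 1 coefficient for each of the 4 groups. The count model of the study was not run on the recovered reads. Two-sided p-values were adjusted by Benjamini-Hochberg over all genes separately for every comparison, and calls required an adjusted p under 0.05. The fit was run on simulated data with changed genes in 1 group only. These held no stimulation changes and no group difference in the share of Gm10800, so they do not test the scaling for stimulation. Fold changes on this scale understate those of low genes. Alternatives were a 1 TPM filter, no filter, a pseudocount of 0.1, unscaled TPM, median of ratios, TPM rescaled without Gm10800, the replicate number as a block, fits of the 2 groups compared, each library left out, and the Hspa1 pair summed.

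The chaperones and the other gene lists were chosen with earlier results of these data known. From each list at most 3 called genes per comparison, by adjusted p, were named. Gene positions are from GENCODE vM1 on NCBIM37 (mm9), and promoters from RefSeq (GRCm38.p6). Uniqueness was counted for 51-base windows of merged exons on both strands of NCBIM37. Sequenced reads carried no molecular identifiers, so read numbers are not numbers of molecules. A gene of these lists is not reported here.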

Additional observations from a re-analysis of the deposited data

How the results depend on the processing

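Over 1028 values of the chaperones under the alternatives, 8 lost a call and 40 were counted as a change of sign. The other 980 kept their side of the threshold. No change of sign was counted where an estimate rounded to 0.00, as for genotype ex vivo of Hspa8 and Hspe1 in the main fit. All 8 lost calls were those of Hsp90ab1, Hspd1 and Hspe1 for stimulation in WT given above, and all changes of sign were in genotype differences or interactions that were not called. The cause was not tested. Compared with the scaling used, the median change of all genes moved by up to 0.40 for stimulation in WT (TPM rescaled without Gm10800), -0.49 for stimulation in cKO and -0.27 for genotype after stimulation (1 TPM filter) and 0.22 for genotype ex vivo and -0.48 for the interaction (TPM as deposited).

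With the 1 TPM filter, no filter and the TPM as deposited, genotype after stimulation became -0.22, -0.21 and -0.22 for Hspa1b and -0.23, -0.22 and -0.21 for Hspa8, and the interaction became -0.09, -0.11 and -0.33 for Dnaja1 and -0.21, -0.23 and -0.45 for Hspa8 (-0.10 with the TPM rescaled without Gm10800). With the TPM as deposited and rescaled without Gm10800, genotype ex vivo became 0.10 and 0.03 for Hsp90aa1 and 0.20 and 0.13 for Hspd1. The interaction of Hspe1 became 0.01 with median of ratios. Among other genes, stimulation in cKO became -0.15 and -0.14 for Hspa4l with the 1 TPM filter and no filter, and stimulation in WT became 0.04 for Hspa14 with the TPM rescaled without Gm10800.

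Leaving out 1 library gave ranges across 0 for genotype ex vivo of Dnajb1 (-0.20 to 0.19), Hspa8 (-0.14 to 0.12), Hspd1 (-0.09 to 0.02) and Hspe1 (-0.08 to 0.08), for genotype after stimulation of Hspa1b (-0.15 to 0.18), Dnaja1 (-0.15 to 0.01), Hspa8 (-0.05 to 0.18) and Hspe1 (-0.08 to 0.02), and for the interaction of Hspa1a (-0.70 to 0.29), Dnajb1 (-0.30 to 0.06), Hsp90aa1 (-0.16 to 0.06), Hspa8 (-0.05 to 0.22) and Hspe1 (-0.08 to 0.05).

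Replicate numbers were shared between groups. Deviations from group means of the 18 same-numbered pairs correlated at -0.21 to 0.26 (median 0), 2 pairs over 0.1. Of 12 libraries, 6 correlated best with their own number. Between WT and cKO ex vivo, same-numbered libraries correlated at 0.15, 0.26 and 0.08, and the others at -0.18 to 0.06. Whether libraries of the same number shared a batch was not tested. With the replicate number as a block, 10 chaperones were called in each stimulation effect and 0 in the genotype effects and the interaction. The calls over all genes went from 704 to 516 (genotype ex vivo), 923 to 631 (genotype after stimulation), 4262 to 3945 (stimulation in WT), 5834 to 5457 (stimulation in cKO) and 147 to 65 (interaction).

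With the 1 TPM filter the calls over all genes were 57 (genotype ex vivo), 68 (genotype after stimulation), 1838 (stimulation in WT) and 0 (interaction), with no filter 56, 68, 1694 and 0, and with the TPM as deposited 273, 306, 1943 and 67. With the TPM rescaled without Gm10800 the interaction had 254. With only the 2 groups compared in the fit, genotype after stimulation had 553.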
